A study of Homo sapiens with 19 samples.

Results

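The OCI-AML3-only H3K27ac peaks were the acetylated regions of OCI-AML3, an established human acute myeloid leukaemia cell line, that no peak of HL-60, Molm13 or K562 touched. A peak of the OCI-AML3 list on chromosomes 1 to 22 or X was a member when no peak of the other 3 lists overlapped it by 1 bp or more. The rule took 10931 of 37531 OCI-AML3 peaks (29.1%, Wilson 95% interval 28.7 to 29.6), and the other 26600 are called the remaining peaks. The 4 H3K27ac lists held 130757 peaks in all on these chromosomes. Members were thus chosen by the called positions in the same lists that are described here, so what follows is a description with no test, and intervals cover counting error only.

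The series asked whether endogenous retroviruses act as enhancers in acute myeloid leukaemia, with ChIP-seq in 19 samples. HL-60 and Molm13, both acute myeloid leukaemia lines, were left untreated. OCI-AML3 and K562, a chronic myelogenous leukaemia line, had been transduced with a lentiviral dCas9-KRAB-mCherry construct and then with an empty sgRNA vector carrying BFP, and were sorted for both colours. All were grown in the same medium and precipitated with the same antibody. Each line contributed 1 H3K27ac library with a peak list, with no replicate and with unknown depth, so differences between libraries and differences between lines cannot be told apart, and neither can the vector and the line. The lists held 20733 peaks in HL-60, 35069 in Molm13 and 37424 in K562, and the share of peaks found in no other line was 30.7%, 27% and 56.0%, against the 29.1% of OCI-AML3.

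Acetylation of histone H3 at the lysine named in H3K27ac is laid down by the acetyltransferases p300 and CBP and marks active promoters and active enhancers. Promoter acetylation is widely shared between related cell types, whereas acetylation of distal elements differs more from type to type. In myeloid cells, distal elements are known to be occupied by PU.1, C/EBP and RUNX factors, with AP-1 and IRF factors joining at inflammatory genes.

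The OCI-AML3 label was checked against promoters of marker genes. An OCI-AML3 peak lay within 500 bp of a transcription start site (TSS) of 23 of 25 myeloid transcription factor genes and of 2 of 20 erythroid genes, while K562 had 12 and 16. Molm13 had 21 and 2 and HL-60 18 and 2, so these counts did not set OCI-AML3 apart from them. Of 26 HOX and HOX cofactor genes, 17 had such a peak in OCI-AML3, 11 in Molm13, 8 in K562 and 1 in HL-60. Among all 19970 protein-coding genes, 11544 had such a peak in OCI-AML3, 10794 in Molm13, 11199 in K562 and 8956 in HL-60. The HOX share in OCI-AML3 lay little above that of all genes. T cell, fibroblast and neuronal genes had promoter peaks in OCI-AML3 at 3 of 24, 2 of 16 and 1 of 17. The shares were higher for B cell (5 of 18), NK cell (4 of 14) and dendritic cell (8 of 17) genes.

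The following reference sequences show DNA in or at members: the centres of a pair of the strongest members, which lie far from promoters, and promoters of genes with a member at the TSS. Capitals mark matches, on either strand, to the letters of PU.1 (GAGGAAGT), of RUNX factors (TGTGGT), of C/EBP factors (TTGCNNAA), of GATA factors (AGATAA), of MEIS factors (TGACAG), of IRF factors (AANTGAAA) or of NF-kB (GGGANTTCC). The centres are 300 bases of hg38, plus strand, and the promoters are 300 bases from RefSeq (GRCh38.p14), written along the gene's own strand. The promoters were chosen after their values were seen.
KCND2 intron, chr7:120344961-120345260 (+): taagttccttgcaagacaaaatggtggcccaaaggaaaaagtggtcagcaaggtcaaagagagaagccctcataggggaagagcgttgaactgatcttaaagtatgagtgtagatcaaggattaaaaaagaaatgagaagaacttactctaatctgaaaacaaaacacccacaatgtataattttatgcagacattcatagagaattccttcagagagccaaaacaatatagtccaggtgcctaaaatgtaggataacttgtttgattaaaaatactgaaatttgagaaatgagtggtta
SLC16A9, chr10:59653911-59654210 (+): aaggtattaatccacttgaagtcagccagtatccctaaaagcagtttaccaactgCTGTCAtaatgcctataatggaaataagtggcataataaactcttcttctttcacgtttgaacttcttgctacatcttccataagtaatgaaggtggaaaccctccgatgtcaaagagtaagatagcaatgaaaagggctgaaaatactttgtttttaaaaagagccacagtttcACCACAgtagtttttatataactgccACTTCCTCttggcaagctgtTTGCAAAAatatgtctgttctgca
MKX promoter, chr10:27745770-27746069 (-): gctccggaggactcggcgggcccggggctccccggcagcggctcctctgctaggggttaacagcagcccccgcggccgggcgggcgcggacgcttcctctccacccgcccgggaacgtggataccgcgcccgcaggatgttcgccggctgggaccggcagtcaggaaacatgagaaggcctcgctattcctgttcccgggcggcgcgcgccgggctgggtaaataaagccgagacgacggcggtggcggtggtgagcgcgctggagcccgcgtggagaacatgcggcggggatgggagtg
CXCL1 promoter, chr4:73869143-73869442 (+): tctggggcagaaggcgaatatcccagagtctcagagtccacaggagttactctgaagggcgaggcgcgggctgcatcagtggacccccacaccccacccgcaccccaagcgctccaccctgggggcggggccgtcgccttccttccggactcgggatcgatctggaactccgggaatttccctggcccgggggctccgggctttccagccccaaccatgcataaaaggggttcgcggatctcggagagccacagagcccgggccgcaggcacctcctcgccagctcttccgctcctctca
CXCL10 promoter, chr4:76023448-76023747 (-): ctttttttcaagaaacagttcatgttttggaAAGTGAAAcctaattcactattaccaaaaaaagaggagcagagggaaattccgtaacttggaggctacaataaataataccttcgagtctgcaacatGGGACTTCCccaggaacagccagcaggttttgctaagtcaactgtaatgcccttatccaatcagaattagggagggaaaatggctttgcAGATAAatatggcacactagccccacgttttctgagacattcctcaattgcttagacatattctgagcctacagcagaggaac
IL1B promoter, chr2:112836730-112837029 (-): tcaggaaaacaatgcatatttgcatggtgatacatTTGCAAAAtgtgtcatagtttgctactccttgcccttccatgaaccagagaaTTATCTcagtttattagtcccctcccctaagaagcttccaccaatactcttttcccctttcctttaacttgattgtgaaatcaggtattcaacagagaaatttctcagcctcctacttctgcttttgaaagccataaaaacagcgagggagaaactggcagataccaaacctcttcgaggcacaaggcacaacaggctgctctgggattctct
KLF2 promoter, chr19:16324576-16324875 (+): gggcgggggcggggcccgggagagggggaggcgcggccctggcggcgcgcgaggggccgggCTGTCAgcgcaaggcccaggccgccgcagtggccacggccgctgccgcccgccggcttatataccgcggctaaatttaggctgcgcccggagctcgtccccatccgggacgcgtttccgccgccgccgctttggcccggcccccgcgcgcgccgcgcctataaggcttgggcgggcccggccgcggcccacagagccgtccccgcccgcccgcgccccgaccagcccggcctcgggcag
The KCND2 window held 35.7% GC with 1 CpG and none of the motifs searched. The SLC16A9 window held 37.0% GC with 2 CpGs and matched MEIS at base 56, RUNX at base 231, PU.1 at base 257 and C/EBP at base 277. Every other centre among the strongest members described below held fewer matches than SLC16A9, and those of CBLB and CREB3L2 held none. The SLC16A9 window is thus not typical of the strongest members. The promoters were of opposite kinds. Those of MKX, CXCL1 and KLF2 held 40, 22 and 49 CpGs at 72.3%, 66.3% and 80.7% GC, while those of CXCL10 and IL1B held 3 and 2 CpGs at 41.3% and 42.3% GC. The CXCL10 promoter matched IRF at base 32, NF-kB at base 129 and GATA at base 218, and the IL1B promoter matched C/EBP at base 36 and GATA at base 88. The IL1B member reached only the end of this window, at the TSS, and both matches lay outside it, whereas the other 4 promoter windows lay inside their member. A match is a description of letters and no evidence of binding. Among 35116 RefSeq promoters of this length, 6.42% held the IRF motif, 1.85% the NF-kB motif, 10.5% the C/EBP motif and 15.8% the MEIS motif.

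Members were narrow and weakly enriched. Their median width was 724 bp (quartiles 426 and 1089 bp), against 1660.5 bp (984 and 2716 bp) for the remaining peaks. The median fold enrichment over local background, as the peak caller gave it, was 2.59 (quartiles 2.43 and 2.82) against 3.28 (2.72 and 4.06). Since a wide peak meets another list more easily, and a strong region is more easily called in a second library, both values are partly set by the rule. Members made up 29.1% of the peaks but 13.7% of the bases, 9.61 Mb beside 60.6 Mb in the remaining peaks. Of the members, 1.71% were 3 kb wide or more, against 20.8% of the remaining peaks, and 31.7% were under 500 bp, against 8.09%. A q-value below 0.001 was reached by 17.9% of members and 72.2% of remaining peaks, and 13.5% of members had a q-value above 0.05, against 2.18%.

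**Figure D1:**
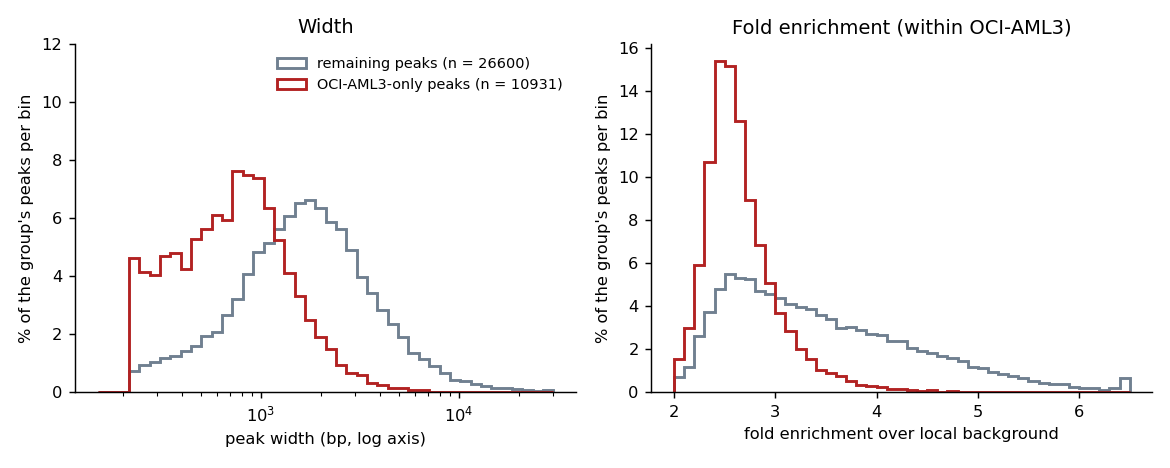
Distribution of peak width (bp, log axis) and of fold enrichment over local background (linear axis); values beyond either axis are placed in the end bins. Curves are for the 10931 OCI-AML3-only peaks (red) and the 26600 remaining OCI-AML3 peaks (grey), as percent of each group per bin. The red curves lie to the left, with medians of 724 bp and 2.59-fold against 1660.5 bp and 3.28-fold.

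The share of members climbed from the strong to the weak end of the list. When the OCI-AML3 peaks were ordered by p-value and divided into 10 equal bins, none of the 3753 peaks of the strongest bin was a member, 27 (0.719%) of the next were, and 69.7% of the weakest bin were. The strongest member by fold enrichment stood at rank 867 of the list, and 39 of the 5000 strongest peaks were members. By width, members made up 61.7% of peaks under 500 bp and 2.19% of those of 4 kb or more. At the border of the rule, 206 members lay within 100 bp of a peak of another line without touching it and were, at the median, 614 bp wide and 2.50-fold enriched. On the other side, 281 remaining peaks were overlapped by at most 100 bp, with medians of 572 bp and 2.52. Peaks just inside and just outside the rule thus had like widths and folds.

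Of the 26600 remaining peaks, 10752 were met in 1 other line, 6954 in 2 and 8894 in all 3. Molm13 alone met 7929, K562 alone 2274 and HL-60 alone 549. Had Molm13 not been in the comparison, 18860 peaks (50.3% of the list) would have been OCI-AML3-only, against 11480 without HL-60 and 13205 without K562. The typical member lay near acetylated chromatin of another line without touching it: the median gap to the nearest peak of any other line was 7.19 kb, and it was 12.2 kb to Molm13, 31.3 kb to K562 and 31.9 kb to HL-60. The nearest remaining OCI-AML3 peak was a median of 15.0 kb away. A peak of another line lay within 100 kb of 93.6% of members, and the most distant member was 2343 kb from any.

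Members lay mostly away from promoters. Within 500 bp of a TSS were 1230 members, or 11.3% (10.7 to 11.9), against 12604 remaining peaks, or 47.4% (46.8 to 48.0). Start sites of protein-coding genes accounted for 7.91% of members and 41.1% of remaining peaks, and start sites of noncoding genes alone for 3.34% and 6.24%. Distal peaks within a protein-coding gene were the largest class of members, 53.4% against 30.2% of the remaining peaks. A further 11.8% lay in noncoding genes only and 23.6% between genes, against 6.38% and 16.0%. The median distance to the nearest protein-coding TSS was 18.5 kb for members and 3.63 kb for remaining peaks, and it was 21.9 and 15.8 kb when peaks at a TSS were set aside. Over 100 kb from any protein-coding TSS were 18.9% of members and 8.06% of remaining peaks.

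The low share at start sites was seen within bins of strength and within classes of width as well. Each was binned alone, so the groups in a bin still differed in the other. In the second strongest bin the median widths were 1386 bp for members and 2421 bp for remaining peaks. Among peaks of 4 kb or more the median folds were 3.16 and 4.25. The part of strength and width in the TSS share was not tested. In the second strongest bin by p-value, 37.0% of members and 73.9% of remaining peaks were at a TSS, and in the weakest bin 7.72% and 13.6%. Among peaks of 500 to 1000 bp the shares were 10.7% and 31.6%, and among those of 4 kb or more 20.5% and 63.1%. In each of the 9 strength bins that held members and in each of the 5 width classes, the members' share was the lower.

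The 12 members with the highest fold enrichment were distal or at a noncoding start, and none was at a protein-coding TSS. The strongest, 6000 bp wide and 5.51-fold enriched, lay in an intron of KCND2, a voltage-gated potassium channel gene, at chr7:120342111-120348110. The nearest peak was 34.4 kb away in K562, 164 kb in HL-60 and 281 kb in Molm13, and the nearest remaining OCI-AML3 peak was 280 kb away. A member of 327 bp and 5.37-fold lay between genes 38 kb from CBLB, which codes for a ubiquitin ligase that restrains immune receptor signalling. Members within ZPLD1 (712 bp, 5.24-fold), PIGU (1226 bp, 5.11-fold), which codes for a part of the enzyme that attaches GPI anchors, and CREB3L2 (1674 bp, 4.99-fold), a bZIP factor gene, followed.

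A member of 3352 bp and 4.90-fold lay in an intron of NR3C1, the glucocorticoid receptor gene, 7.03 kb from a K562 peak, 49.2 kb from an HL-60 peak and 49.8 kb from a Molm13 peak. In SLC16A9, of the monocarboxylate transporter family, a member of 3299 bp and 4.88-fold stood 43.3 kb from the nearest peak of any line, again K562. The member nearest to ARNT, the partner of several bHLH-PAS factors, overlapped the pseudogene RPS27AP6, measured 1894 bp at 4.81-fold, and had peaks of all 3 other lines 3.3 to 3.6 kb away. The other 4 lay 148 kb from the TSS of PIK3R1, a PI3-kinase regulatory subunit (4.80-fold), in UPP2, a uridine phosphorylase (4.75-fold), 19.2 kb from SMC1A, a core cohesin subunit (4.74-fold), and in PPP3CA, the calcineurin catalytic subunit (4.70-fold). The one in PPP3CA was 1.07 kb from an HL-60 peak. Over the 12, the gap to the nearest peak of another line ran from 1.07 kb at PPP3CA to 43.3 kb at SLC16A9.

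The widest member was at MKX, which codes for the homeobox factor Mohawk, known from tendon development. It covered 26682 bp at chr10:27723270-27749951, took in the MKX promoter shown above, was 4.23-fold enriched and stood at rank 24 by width in the whole OCI-AML3 list. The nearest peak of another line, in HL-60, was 169 kb away, and the nearest remaining OCI-AML3 peak 192 kb. The next widest were far narrower. PLAC8 held a member of 9028 bp at 2.56-fold, SATB1, a chromatin organiser of lymphoid cells, one of 8385 bp at 2.79-fold, and CXCL1, a neutrophil-attracting chemokine, one of 7484 bp at 4.02-fold. The PLAC8 and SATB1 members had a peak of another line 4.38 kb and 842 bp away, whereas the nearest to the CXCL1 member was 34.5 kb away, in K562. PTPRN2, SPTLC2, ARHGEF3, DNAH8 and VPS13B held members of 6428 to 7172 bp. One of 6719 bp and 3.82-fold had ZEB2 as its nearest gene at a distance of 889 kb, and the nearest peak of another line, in Molm13, was 137 kb away.

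At least 1 TSS of 842 of 19970 protein-coding genes (4.22%) had a member within 500 bp. In most cases this was not the gene's sole acetylated start: 446 of the 842 also had a remaining OCI-AML3 peak at a TSS, and 497 had a peak of another line at some TSS. The genes with an OCI-AML3 peak at a TSS and none of another line at any TSS numbered 345 of 19970 (1.73%). RefSeq promoters could be matched for 654 of the 842 genes, and 229 of these windows overlapped the member, so many members lay at other annotated starts.

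The 10 strongest members at protein-coding starts split on this line. At SENP2, a SUMO protease gene (4.53-fold), PGAP4 (4.37-fold) and KAT6B, a histone acetyltransferase gene (4.26-fold), HL-60, Molm13 and K562 each had a peak at another start of the gene, and so did OCI-AML3. In the other 7 no line but OCI-AML3 had a peak at any start. Among them were ADGRA3, an adhesion GPCR gene (3712 bp, 4.50-fold), the olfactory receptor gene OR1G1 (5179 bp, 4.28-fold), MKX, NMUR1 (631 bp, 4.12-fold), SIDT1 (244 bp, 4.07-fold) and SEMA3F, a secreted semaphorin gene (496 bp, 4.03-fold). The ADGRA3 and OR1G1 members were 118 and 110 kb from any peak of another line. Those at NMUR1 and SIDT1 were 3.17 and 5.00 kb away.

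Among the gene lists, which were written with earlier results of these data known, the chemokine and cytokine genes had a member at a TSS in 3 of 28, beside 4.22% of all protein-coding genes. They were CXCL1, CXCL10 and IL1B, all inflammatory signals made by stimulated myeloid cells, and no other line had a peak at a start of any of them. CXCL10, whose product attracts T cells, had a member of 2522 bp at 2.81-fold, and IL1B, the interleukin-1 beta gene, one of 2175 bp at 3.19-fold. The nearest peaks of another line were 3.88 kb from the CXCL10 member and 4.66 kb from the IL1B member. Within 10 kb of the CXCL1 gene OCI-AML3 had 9.15 kb in peaks and the other lines none. CXCL8, the neutrophil chemokine gene in the same cluster, had promoter peaks in all 4 lines and was nearest to 3 members.

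Interferon response genes had a member at a TSS in 4 of 23 (IFIT5, MX2, OAS2 and OASL), beside 4.22% of all protein-coding genes. OASL and OAS2, of the oligoadenylate synthetase family, had members of 822 bp at 3.33-fold and 765 bp at 2.32-fold. The IFIT5 member measured 621 bp at 2.68-fold and was also within 500 bp of a TSS of LIPA, so it cannot be assigned to IFIT5 alone. No other line had a promoter peak at OASL, OAS2 or IFIT5. MX2, a dynamin-like antiviral GTPase gene, had a member of 2626 bp at 3.46-fold, but HL-60 and Molm13 had peaks at another start and the nearest was 692 bp away.

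Monocyte and macrophage genes had a member at a TSS in 4 of 28, beside 4.22% of all protein-coding genes. These were FCGR1A, ITGAM, ITGAX and S100A8. ITGAM and ITGAX code for the alpha chains of the leukocyte integrins CD11b and CD11c, FCGR1A for a high-affinity IgG receptor and S100A8 for a calprotectin subunit. None of them had a promoter peak in another line. The margin was thin, however: a peak of another line ended 33 bp from the ITGAM member (1206 bp, 3.04-fold), 1118 bp from that of ITGAX (929 bp, 2.86-fold), 1305 bp from that of FCGR1A and 3142 bp from that of S100A8 (1405 bp, 2.34-fold). FCGR1A has near-identical copies, so its peak is uncertain where reads had to map to a single place.

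Of 25 myeloid transcription factor genes, 4 had a member at a TSS, beside 4.22% of all protein-coding genes. KLF2, a quiescence-associated zinc finger factor of leukocytes, had a member of 1151 bp at 3.50-fold over the CpG-rich promoter shown above, and ERG, an ETS factor of stem and endothelial cells, one of 1194 bp at 2.82-fold. No other line had a peak at a start of KLF2 or ERG, although HL-60 had 7 peaks, 8.27 kb in all, within 10 kb of the ERG gene against 4 peaks and 2.77 kb in OCI-AML3. At IKZF1 and ZEB2 the members were at additional starts of genes whose promoters had peaks in all 4 lines, and the ZEB2 member ended 199 bp from a peak of another line.

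Among the HOX cofactor genes, PBX3, whose product partners HOX proteins, had no member at a start but was nearest to 16, with a median fold of 2.61, and OCI-AML3 had 90.3 kb in peaks within 10 kb of it, against 67.3 kb in Molm13 and none in HL-60 or K562. MEIS1, whose product binds DNA with HOXA9, was nearest to 3 members and had peaks over 52.6 kb in OCI-AML3, 39.9 kb in Molm13 and 16.8 kb in K562.

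Dendritic cell genes had a member at a TSS in 2 of 17, BATF3 and TCF4. BATF3, a dendritic cell factor gene (1918 bp, 2.38-fold), and BLNK, a B cell adaptor gene (359 bp, 2.54-fold), had a member at the start and no promoter peak in another line, while CCR3, TCF4, CIITA and TNFRSF1A had a member at a start and other lines' peaks at some start. No member was at a TSS of the 20 erythroid, 16 megakaryocyte, 24 T cell, 14 NK cell, 18 neutrophil and granule, 16 fibroblast or 17 neuronal genes. At the 4.22% of all protein-coding genes, lists of this size would hold about 1 or none, so nothing is read from these counts.

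Where each member was given to the nearest protein-coding TSS, 5102 of 19962 genes (25.6%) were nearest to at least 1 member, 1216 (6.09%) to at least 3 and 87 to at least 10. Myeloid transcription factor genes were nearest to at least 3 members in 8 of 25 (GFI1, KLF4, RUNX1, RUNX2, LMO2, ERG, IKZF1 and ZEB2). RUNX1 and RUNX2, which code for core-binding factor subunits, were nearest to 18 and 13, and KLF4, a monocyte differentiation factor, to 8. Large genes and genes beside deserts gather more peaks, and length was not adjusted for. RUNX1 had 47 OCI-AML3 peaks within 10 kb, 42 in Molm13, 31 in K562 and 14 in HL-60. Cytokine receptor genes were nearest to at least 3 in 5 of 26 (IL6R, IFNGR1, TGFBR1, TGFBR2 and CXCR4). Other list genes nearest to at least 3 members included CD36 (3), CD83 (9), CADM1 (3), EBF1 (4), GATA3 (3), FLT1 (4), RAB27B (4), STMN2 (3) and CNTNAP2 (4), none of which had one at a TSS, and CCR3 (6) and CIITA (3), which had.

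The gene nearest to the most members was CSMD3, a very long gene of a membrane protein with CUB and sushi domains, with 79 of 94 nearest peaks. It had no promoter peak in any line, and 23 of the 79 lay inside it. CPQ, DACH1 and SATB1 followed with 25 each, TCF12, a bHLH factor gene, with 24, CITED2 and SGCZ with 22 each, PTPRC, the CD45 gene, and SLITRK5 with 20 each, and LYST and MAT2B with 19 each. In SGCZ, a muscle sarcoglycan gene, 22 of 23 nearest peaks were members and no line had a promoter peak. SLITRK5 had a promoter peak in OCI-AML3 alone, of 2.05 kb. At CITED2 none of the members, and at MAT2B 1, lay inside the gene itself.

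Neighbouring members were joined into domains at a distance like that used to stitch enhancers, and the largest gap so bridged was 12478 bp. There were 350 domains of at least 3 members, which took in 1260 members (11.5%), and 49 had 5 or more. Their median span was 16.1 kb. Over 50% of the span lay in 1 protein-coding gene in 249 domains, and 194 held no peak of another line. Members in domains were no stronger than the others, with a median fold of 2.58 against 2.59 and a median width of 829 against 713 bp, and 72.6% against 60.9% lay inside a protein-coding gene. The count rested on weak peaks: when the OCI-AML3 list was limited to q-values below 0.001, 5 domains were left, near DOCK10, SFMBT2, FAM107B, MKX and BCL2L13.

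The domain with the most members was in LYST, the lysosomal trafficking gene mutated in Chediak-Higashi syndrome. It had 15 members over 87.7 kb at chr1:235738999-235826660, of 375 to 4869 bp and 2.21- to 2.86-fold, interleaved with 3 remaining OCI-AML3 peaks and 4 Molm13 peaks. HL-60 and K562 had no peak inside it. NIPBL, the gene of the cohesin loader, had 12 members over 53.7 kb at chr5:36890620-36944309, of 233 to 1972 bp and 2.47- to 2.79-fold, with no peak of another line inside. In PHIP, which codes for a bromodomain protein, 9 members shared 63.4 kb with 6 K562 peaks.

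Upstream of the TSS of SFMBT2, a gene of the Polycomb-related MBT family, 8 members spread over 39.3 kb at chr10:7428576-7467829, in part within the noncoding LINC02642. They covered 49.8% of the span, included members of 5464 and 4156 bp and reached 3.85-fold, and no other line had a peak inside. A Molm13 peak lay 60 bp from the first member along the chromosome, however. Within 100 kb of this domain Molm13 had 12 peaks, HL-60 2 and K562 2. PAN3, of the deadenylase complex, had 8 members in 46.8 kb and the region nearest to CSMD3 8 in 50.1 kb. FOXP1 and DACH1, both transcription factor genes, had 7 each, in 38.9 and 25.3 kb, and NEK9 with TMED10 7 in 50.2 kb. DOCK10, a guanine nucleotide exchange factor gene, had 6 in 33.5 kb, with a highest fold of 3.73 and no peak of another line inside. Molm13 had 11 peaks within 100 kb of the DOCK10 domain, while HL-60 and K562 had none.

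In 16 domains no peak of another line was found inside or within 100 kb. The MKX domain was the largest of them, with 4 members over 47.1 kb and 31781 bp covered. At OR1G1 3 members covered 56.9% of 12.7 kb and reached 4.28-fold. Others reached 4.24-fold near LRRC4C, 3.73-fold near CDH6, a cadherin gene, and 3.44-fold in JCAD, an endothelial junction gene. These 5 were named after their values were seen.

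Members were unevenly spread over chromosomes. They made up 45.1% of the peaks of chromosome 8 (1063 of 2359) and 42.5% of those of chromosome 13 (485 of 1142), against 9.18% on chromosome 19 and 20.9% to 36.7% on the others. Per Mb, chromosome 8 had 7.32 members and 8.93 remaining peaks, and the genome as a whole 3.61 members. Several values moved with this. HL-60 had its lowest peak density on chromosome 8, at 2.46 per Mb, and K562 on chromosome 13, at 4.19 per Mb. The OCI-AML3 peaks of chromosome 8 also had the lowest median fold of any chromosome, 2.50 for all and 2.38 for members. Chromosome 19 had 18.7 HL-60, 29.6 Molm13 and 29.4 K562 peaks per Mb. The part of these densities and folds in the shares was not tested. Without chromosomes 8 and 13 the share of members was 27.6%.

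In bins of 10 Mb, the one with the most members was at 110 to 120 Mb of chromosome 8, where 142 of 194 peaks (73.2%) were members. The CSMD3 gene lies there. On chromosome 13 the bin from 70 to 80 Mb, which holds DACH1, had 97 of 160 (60.6%). Domains followed the same pattern, with 51 of 350 on chromosome 8 and 23 on chromosome 13.

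Members were poorer in GC and CpG than the remaining peaks. Median GC content was 40.9% against 48.1%, and CpGs per 100 bp were 0.765 against 1.69. The gap was smaller away from start sites, at 40.6% against 43.4% GC, and wider at them, where members had 46.1% GC and 1.32 CpGs per 100 bp against 54.6% and 4.57. The MKX, CXCL1 and KLF2 promoters shown above, with 22 to 49 CpGs in 300 bases, were richer in CpG than the median member at a TSS.

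Motif content was compared in the central 300 bp, with distal peaks and peaks at a TSS kept apart. The distal values come first. PU.1 letters were in 3.82% of distal members (3.46 to 4.22) and 5.54% of distal remaining peaks (5.17 to 5.93), and NF-kB letters in 0.722% and 1.10%. IRF letters were in 19.7% (19 to 20.5) and 16.3% (15.7 to 17.0), and GATA letters in 20.9% and 18.3%. C/EBP letters were in 22.2% and 20.4%, and HOX-MEIS letters (TGATTNAT) in 5.71% and 4.94%. For RUNX the shares were 22.8% and 23.5%, for AP-1 (TGANTCA) 13.2% and 13.8%, for MEIS 18.7% and 19.6%, and for ETS (CCGGAAGT) 0.320% and 0.457%. The E-box (CAGCTG) was in 13.6% of distal remaining peaks, and the interval for distal members was 11.9% to 13.2%. Among distal peaks, the motifs that were more frequent in members are AT-rich, and GC content moved with them. Its part was not tested. At a TSS, PU.1 letters were in 3.09% of members (2.26 to 4.21) and 2.40% of remaining peaks (2.15 to 2.69). RUNX letters were in 18.0% of these members, and the interval for these remaining peaks ended at 13.1%. AP-1 letters were in 9.92% and 5.81%, MEIS letters in 18.1% and 14.6%, and IRF letters in 13.7% and 6.67%. ETS letters alone were rarer in members, at 0.407% and 2.86%. GC content differed at a TSS as well, and its part there was not tested.

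The dCas9 peaks of K562 cells with LTR2B sgRNAs, which mark sites where the guides bound, seldom met the members. Of 392 such peaks, 5 (1.28%, 0.546 to 2.95) overlapped a member and 70 (17.9%, 14.4 to 22) a remaining OCI-AML3 peak. These counts are partly set by the rule, since no member meets a K562 H3K27ac peak. Members also covered fewer bases, 9.61 Mb against 60.6 Mb. The 5 dCas9 peaks that met a member were near or in MYO3B, CHORDC1, MOAP1, PAK6 and AMOT, none at a TSS, with members of 247 to 984 bp and 2.44- to 3.74-fold. These genes were named after their values were seen.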

How the data were processed

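ChIP-seq was performed by the study's authors on cross-linked chromatin. Per the methods and the submitters' notes, reads were trimmed (Trim Galore 0.4.5), aligned to hg38 with Bowtie2, limited to uniquely mapped reads and called with MACS2 2.1.1 in broad mode at a q-value of 0.05. The control library given to the caller is not given in the sources used here. The deposited lists hold, per peak, the fold enrichment over local background (a ratio), the −log10 p-value and −log10 q-value, and a score derived from the q-value by the caller. In the main description, fold and q-values were used within the OCI-AML3 list only, because the lists are not normalised to each other. Some of the alternatives limited or cut every list by its own q- or p-values. The score, and the input, H3K9me3 and LTR2B-sgRNA H3K27ac samples, were not used here. Near-identical copies lose reads to unique mapping.

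Members were found by overlap of 1 bp on chromosomes 1 to 22 and X, which left out 75 OCI-AML3 peaks. The count was checked with bedtools 2.31.1, and the overlap, distance and domain code was tested on simulated intervals. Start sites and genes came from GENCODE 44, promoter sequences from RefSeq (GRCh38.p14). Members and gene lists were chosen with earlier results of these data known. Named are the 12 strongest members, the 10 strongest at a protein-coding TSS, the 10 widest, the 10 domains with most members, the 10 genes nearest to most members (11 with ties), and list genes with a member at a TSS or at least 3 nearest. Some genes that this rule names are not reported here. DDX58 of the interferon list has no entry under that symbol in the annotation. With 1 library per line no test was made. Shares carry Wilson 95% intervals, which cover counting error only. Alternatives were other q-value limits, list lengths, overlap rules, lines, TSS windows and joining distances. Python 3.11.15 with NumPy 2.4.6, pandas 2.3.3, SciPy 1.17.1 and pysam 0.24.0 was used.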

Additional observations from a re-analysis of the deposited data

How the results depend on the processing

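No paired analysis was possible because each line had 1 library with a peak list. The members' TSS share, median width and median fold lay below those of the remaining peaks in each of 12, 9 and 9 alternatives, but their size moved with the rule. The values below are, in order, members, TSS share, median width, median fold, domains and protein-coding genes with a member at a TSS, against 10931, 11.3%, 724 bp, 2.59, 350 and 842. With the OCI-AML3 list limited to q below 0.001 they were 1959, 16.7%, 1012 bp, 3.16, 5 and 238. With all 4 lists so limited, they were 4922, 21.0%, 1253 bp, 3.17 and 42 domains. With lists cut to 20733 peaks, they were 3247, 18.8%, 1166 bp, 3.18, 20 and 458. Without Molm13 they were 18860, 13.8%, 915 bp, 2.69, 1149 and 1644. Where another line had to cover at least 50% of the peak, TSS share, width, fold, domains and genes were 14.3%, 871 bp, 2.64, 714 and 1477. Without K562 the TSS share was 14.8% and the genes 1428. TSS windows of 1 and 2.5 kb gave 14.4% and 23.3%, and the wider one 1499 genes. Joining at 5 and 25 kb gave 120 and 626 domains, and a minimum of 5 members 49. The other 29 values stayed within 1.5 times for counts, and within the 95% interval for shares and medians. Leaving out chromosomes 8 and 13, which was chosen after seeing the data, gave 9383 members, 11.8% and 276 domains. Depth was unknown, so a peak absent from a list cannot be read as a region without acetylation.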

Other observations

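Members were also distributed over gene deserts: 469 of them (4.29%, 3.93 to 4.69) lay over 500 kb from any protein-coding TSS, against 1.37% (1.24 to 1.52) of the remaining peaks. Among promoter members with no promoter peak in another line, those at RGS16, a regulator of G protein signalling (3710 bp, 2.57-fold), UNCX, a homeobox gene (3466 bp, 2.50-fold), BMP2, a bone morphogenetic protein gene (3430 bp, 2.91-fold), and CKAP4 (3070 bp, 3.05-fold) were over 3 kb wide. LAT, the adaptor of T cell receptor signalling, had one of 3274 bp at 3.93-fold with the nearest other line's peak 7.93 kb away, although no gene of the T cell list had a member at a TSS. These genes were chosen after their values were seen.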
